A study of Homo sapiens with 3 samples.

Results

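The genes described are 5 that encode intestinal sugar transporters and beta-glucosidases: SLC5A1, SLC2A2, SLC2A5, LCT and GBA3. They were chosen by function, as proteins that could take up or cleave a glucoside of resveratrol, and all 5 have a row among the 60664 gene identifiers of the count table. The data are RNA read counts from Caco-2, an established human colon carcinoma line of wild-type genotype that is widely used as a model of the intestinal lining. Each of 3 groups is 1 library. The control cells were left untreated, the DSS cells received 3% dextran sulfate sodium (a sulfated polysaccharide used to provoke colitis in rodents) for 8 h, and the third group received 30 µM polydatin for 2 h and then polydatin together with 3% DSS for 8 h. No library of cells given polydatin alone was analysed here. By its title, the study asked about polydatin and ferroptosis, so these genes are not the ones it was designed around.

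Polydatin is resveratrol carrying a glucose unit. In the small intestine such glucosides are thought to be handled in either of 2 ways: cleavage at the brush border, with the freed aglycone diffusing into the cell, or entry of the intact glucoside by a sugar transporter followed by cleavage inside. SLC5A1 encodes SGLT1, the apical cotransporter that moves glucose and galactose with sodium. SLC2A2 encodes GLUT2, a facilitative transporter for glucose, galactose and fructose at the basolateral side, and SLC2A5 encodes GLUT5, the apical fructose transporter. LCT encodes lactase-phlorizin hydrolase, the brush border enzyme that splits lactose and also several plant glucosides. GBA3 encodes a cytosolic beta-glucosidase with broad specificity for such compounds.

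All 5 genes were at or near the lower limit of these libraries, which held 16667622 to 18825914 counts. Levels are given in CPM (counts relative to the scaled library total), where 1 CPM was 17.4 to 18.5 counts. A gene counted as measured when it reached 1 CPM in at least 1 library, which 14792 genes did. SLC5A1 and SLC2A2 passed this filter, while SLC2A5, LCT and GBA3 did not. SLC5A1 passed only through the polydatin library and SLC2A2 only through control, so each passed only through the library where it was highest. The filter thus favours members with a high value in 1 library. With 1 library per group there is no replicate, and no test of the conditions, p-value or standard error can be given. Each ratio compares libraries, and its 95% interval covers counting error only, since no spread between cultures was measured. The reads carry no molecular identifiers and cannot be taken as separate molecules, so the interval may be too narrow even for counting error.

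The libraries held the transcripts of several enterocyte genes, among them VIL1 (villin) with 8377, 9039 and 7051 counts in control, DSS and DSS with polydatin, and CDH17 (an intestinal cadherin) with 7829, 11381 and 11139. Of the 12 enterocyte markers listed, 9 were measured. FABP1 had 3473, 3601 and 2336 counts and ALPI, intestinal alkaline phosphatase, 337, 462 and 531, while FABP2, the small intestinal fatty acid binding protein, had 1, 0 and 1 and KRT20 had 10, 9 and 8. Together the enterocyte markers summed to 1379, 1740 and 1644 CPM and the 6 goblet cell markers to 7.65, 11.4 and 13.2 CPM. The 5 enteroendocrine markers summed to 0.991, 1.94 and 2.98 CPM, with CHGA at 0 in every library. Of the immune markers, PTPRC was at 0 throughout, and the 4 of them summed to 2.59 to 3.51 CPM. The 4 fibroblast markers summed to 49.8 to 60.4 CPM and the 6 liver-type secreted proteins to 394 to 571 CPM. The part of these markers in the results below was not tested. In a bulk library fewer cells that make a transcript and less of it per cell cannot be told apart.

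SLC5A1, the sodium-glucose cotransporter gene, was the one member that stood higher with polydatin. Its counts were 14 without treatment, 17 with DSS alone and 60 with polydatin and DSS, on chromosome 22 from 32043032 to 32113029 (GRCh38). The corresponding levels were 0.771 CPM (0.422 to 1.29), 0.918 CPM (0.535 to 1.47) and 3.44 CPM (2.63 to 4.43). The intervals of control and DSS overlapped, and that of the polydatin library lay above both. Relative to DSS alone, SLC5A1 was 3.75-fold higher with polydatin (2.16 to 6.86). DSS was at 1.19 times control (0.552 to 2.61), an interval that spans values from below to well above control. Relative to control, the polydatin library was 4.46-fold higher (2.46 to 8.65), a ratio that shares its numerator with the 3.75-fold value and is no second measurement of it.

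**Figure D1:**
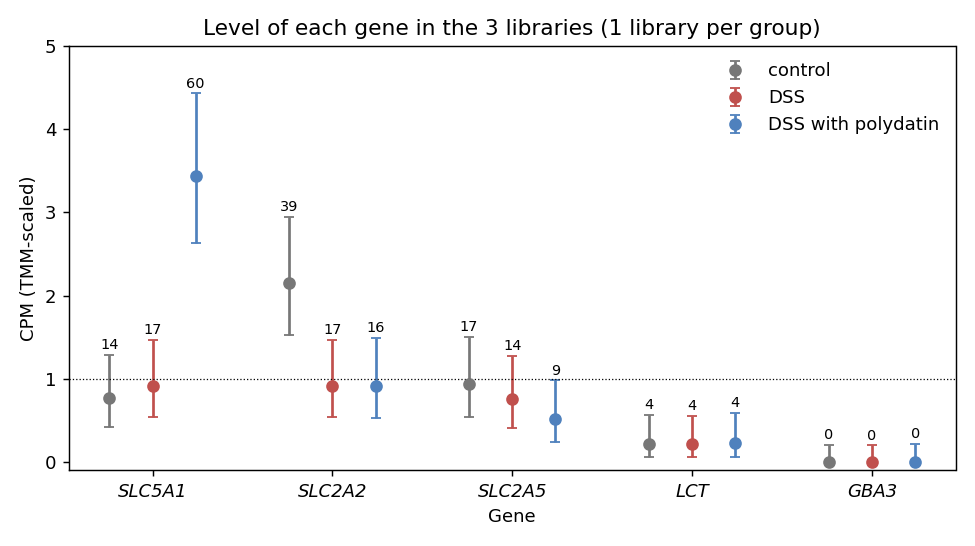
The level of each gene in CPM (y axis) in the control (grey), DSS (red) and DSS with polydatin (blue) libraries, with exact 95% Poisson intervals as bars, raw counts printed above and the 1 CPM filter as a dotted line. SLC5A1 reached 60 counts with polydatin against 14 and 17 in the other 2 libraries, SLC2A2 was highest in control at 39 counts, and LCT and GBA3 stayed at 4 and 0 counts.

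For polydatin with DSS against DSS, a gene was called higher or lower when its ratio passed 1.5-fold in that direction and its interval did not reach 1. By that rule 797 of the 14792 measured genes (5.39%) were higher with polydatin and 384 (2.6%) lower, and 1 of the 2 measured members, SLC5A1, was among the higher ones. Under total-count scaling the split was 1132 higher and 234 lower. Among the 3372 genes whose highest level lay from 1 to below 5 CPM, 12% were called higher. SLC5A1 enters these sets only through its level in the polydatin library, so its place among their ratios supports nothing further. The spread between cultures of the same treatment was not measured, and the counting interval does not include it.

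**Figure D2:**
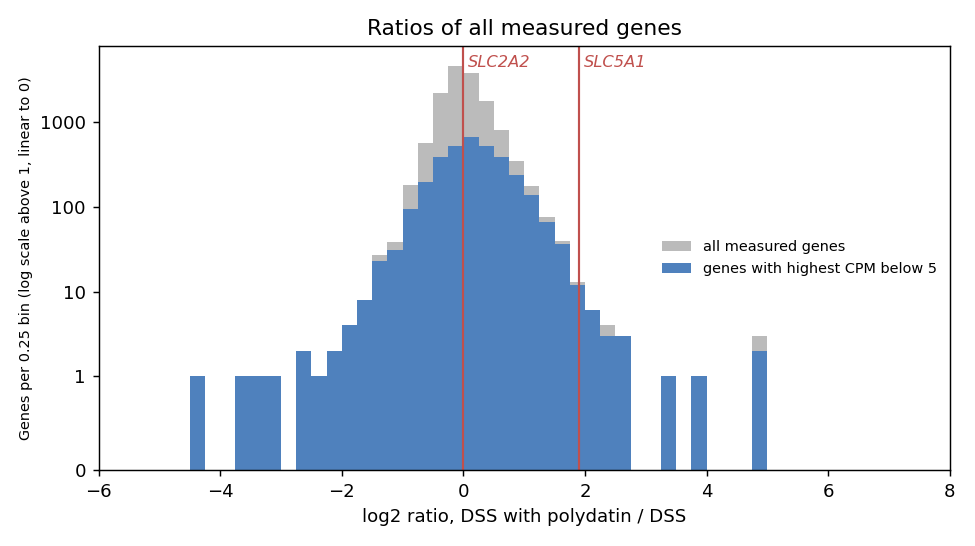
Number of measured genes (y axis, logarithmic above 1 and linear down to 0) by log2 ratio of DSS with polydatin to DSS (x axis, bins of 0.25), for all 14792 measured genes (grey) and for the 3372 with a highest level below 5 CPM (blue). The red lines mark SLC2A2 near 0 and SLC5A1 at 1.91, and nearly all genes to the right of SLC5A1 were of low counts.

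The promoter windows of the 2 members that differed between libraries are shown because each was called in a different comparison, SLC5A1 with polydatin and SLC2A2 with DSS. They are the 250 bases before the RefSeq start site (GRCh38.p14), written 5′ to 3′ on the strand of the gene, at chr22:32043011-32043260 (plus strand) and chr3:171026721-171026970 (minus strand). The GENCODE gene models used for the coordinates above start further upstream, so that 229 of these bases for SLC5A1, the HNF4 match included, and 30 for SLC2A2 lie inside them. Capitals mark matches to any of 4 motifs of factors known to act on intestinal or sugar-responsive genes.
SLC5A1: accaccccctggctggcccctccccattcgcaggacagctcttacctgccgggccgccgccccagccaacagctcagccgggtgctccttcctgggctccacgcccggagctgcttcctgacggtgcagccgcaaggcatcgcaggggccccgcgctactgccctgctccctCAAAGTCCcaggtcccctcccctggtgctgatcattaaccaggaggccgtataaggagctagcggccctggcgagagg
SLC2A2: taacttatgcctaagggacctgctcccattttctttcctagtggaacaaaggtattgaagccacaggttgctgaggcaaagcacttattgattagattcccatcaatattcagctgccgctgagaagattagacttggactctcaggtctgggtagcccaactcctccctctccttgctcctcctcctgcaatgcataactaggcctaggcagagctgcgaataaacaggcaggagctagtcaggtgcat

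The 4 motifs were searched on both strands. CAAAGTCC is a motif of HNF4. TTTATNG is bound by CDX factors, the letters AGATAA by GATA factors, and CACGTG is the E-box. The SLC5A1 window held 1 match, to the HNF4 motif at bases -78 to -71 from the start site. Over 35116 RefSeq windows of the same length, 1.02% held the HNF4 motif, 8.93% the CDX motif, 9.17% the GATA motif and 6.34% the E-box. The SLC2A2 window held none of these letters. The SLC2A5 window, all 250 bases of which lie inside its GENCODE model, held 1 match, to the CDX motif at -30 to -24, which covers a TATA box. A match is a run of letters and not a site of binding.

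Transcripts of factors of these motif families followed different orders of libraries. MLXIPL, whose product acts through E-box-type sites, had 73, 238 and 337 counts in control, DSS and DSS with polydatin, the order of SLC5A1. GATA4 had 27, 27 and 33 counts and GATA6 1402, 1619 and 1443. HNF4A, a nuclear receptor of gut and liver epithelium, had 5658, 8084 and 5217 counts in the control, DSS and polydatin libraries. It was at 1.40 times control in DSS (1.35 to 1.45) and at 0.686 times DSS with polydatin (0.662 to 0.710). HNF4A and the GATA genes were named for their motifs, with their values already known. CDX2, the master regulator of intestinal identity, had 2666, 2180 and 1365 counts and was called lower with polydatin, at 0.665 times DSS (0.621 to 0.712).

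SLC2A2, the GLUT2 gene, was lower in both libraries that received DSS. Its counts were 39 without treatment, 17 with DSS alone and 16 with polydatin and DSS, on chromosome 3 from 170996348 to 171026750. Its levels were 2.15 CPM (1.53 to 2.94), 0.918 CPM (0.535 to 1.47) and 0.918 CPM (0.524 to 1.49). Control lay above the other 2 libraries with no overlap of intervals, and those 2 had nearly the same interval. DSS was at 0.427 times control (0.227 to 0.773). SLC2A2 was the 1 member called in that comparison, in which 859 measured genes (5.81%) were lower and 1398 (9.45%) higher. Of the genes from 1 to below 5 CPM, 8.54% were lower. SLC2A2 enters these sets only through its level in control, so its place among them supports nothing further. The ratio of DSS with polydatin to DSS was 1.00 (0.473 to 2.10), which leaves room for a 2-fold difference either way. Relative to control the polydatin library was again at 0.427 times (0.223 to 0.782).

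Between polydatin with DSS and control, SLC5A1 was called higher and SLC2A2 lower. In that comparison 16% of the measured genes were higher and 12.4% lower, 2367 and 1829 genes. Total-count scaling gave 2957 and 1238. Among the genes from 1 to below 5 CPM, 22.4% were higher and 9.93% lower. SLC5A1 was measured only through the polydatin library and SLC2A2 only through control. Their place among these shares therefore supports nothing further. The control and polydatin libraries both enter the other comparisons, so these calls are not independent of the ones above.

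SLC2A5, the fructose transporter gene, had the lowest count with polydatin, but no ratio was separated from 1. It had 17, 14 and 9 counts in control, DSS and DSS with polydatin (chromosome 1, 9035107 to 9088478), which are 0.936, 0.756 and 0.516 CPM. All 3 counting intervals overlapped. DSS was at 0.807 times control (0.368 to 1.74), DSS with polydatin at 0.683 times DSS (0.261 to 1.69), and DSS with polydatin at 0.551 times control (0.217 to 1.31). At this depth neither a halving nor an equal level can be set aside for the last pair.

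LCT had 4 counts in every library, just above the 3 counts taken as the floor of detection (chromosome 2, 135787840 to 135837180). These counts are 0.220, 0.216 and 0.229 CPM, against a floor of 0.165, 0.162 and 0.172 CPM. The ratio of DSS with polydatin to DSS was 1.06 with an interval from 0.198 to 5.70, and that of DSS to control 0.980 (0.183 to 5.26). These intervals leave room for a difference in LCT of up to 5-fold either way. The brush border lactase transcript was present at most at trace level in these cells.

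GBA3 had 0 counts in all 3 libraries. A count of 0 allows 0.165, 0.162 and 0.172 CPM by the 3-count limit, and the exact Poisson intervals reach 0.203, 0.199 and 0.212 CPM. It lies on chromosome 4 from 22692914 to 22819575 and is classed as a polymorphic pseudogene in GENCODE release 29. No ratio is given for it. The strand setting of the counting is not given in the sources used here, so reads of overlapping genes cannot be separated. SLC5A1 and SLC2A2 overlap no other annotated gene, while SLC2A5 overlaps 1, LCT 2 and GBA3 1.

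Levels can be set against each other across genes once divided by exon length. In control, SLC2A2 stood at 0.629 CPM per kb of exon (0.447 to 0.859), above SLC5A1 at 0.145 (0.0794 to 0.244) and SLC2A5 at 0.140 (0.0815 to 0.224), which overlapped. LCT followed at 0.0334 CPM per kb (0.00911 to 0.0856), its upper limit just above the lower limit of SLC2A5, and GBA3 was at 0. In DSS, SLC2A2 (0.269 CPM per kb, 0.156 to 0.430), SLC5A1 (0.173, 0.101 to 0.277) and SLC2A5 (0.113, 0.0617 to 0.189) formed a run in which each overlapped the next. With polydatin the order at the top was turned, with SLC5A1 at 0.648 CPM per kb (0.494 to 0.834) above SLC2A2 at 0.269 (0.153 to 0.436). SLC2A5 followed at 0.0771 CPM per kb (0.0353 to 0.146) and overlapped LCT at 0.0348 (0.00949 to 0.0892).

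**Figure D3:**
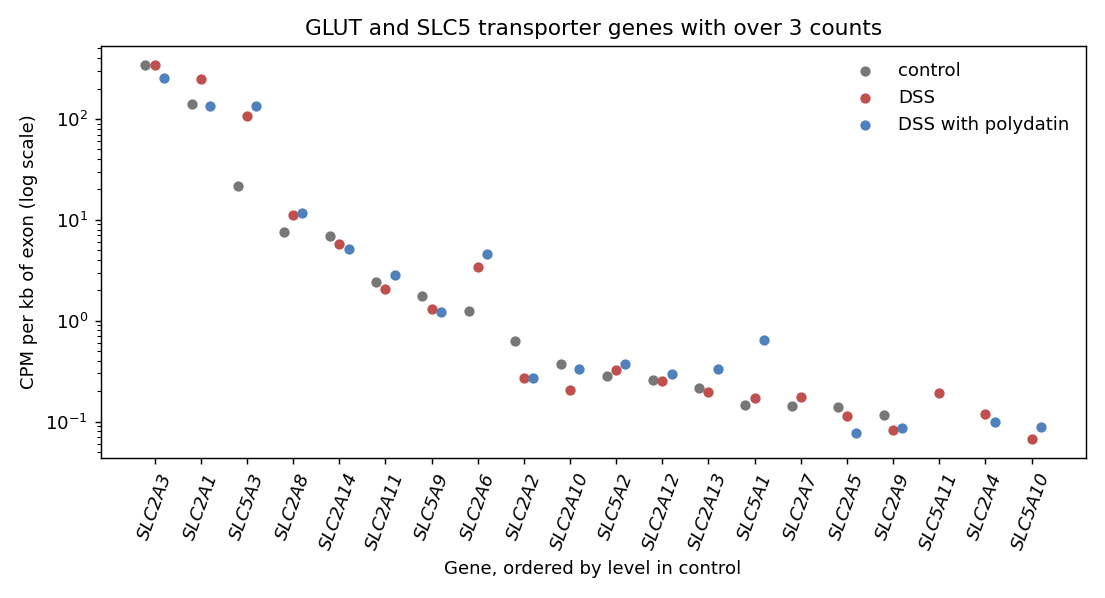
Level per kb of exon (y axis, log scale, CPM per kb) of the GLUT and SLC5 transporter genes (x axis, in the order of the control library) in control (grey), DSS (red) and DSS with polydatin (blue). Points with 3 counts or fewer are left out. SLC2A3, SLC2A1 and SLC5A3 stand far above the others, and SLC5A1 moves from rank 14 in control to rank 9 with polydatin.

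The members made up little of the sugar transporter transcripts. Among the 21 genes of the GLUT family and of the SLC5 sugar and polyol cotransporters, SLC5A1 ranked 14 per kb in control and 9 with polydatin, while SLC2A2 ranked 9 in control and 14 with polydatin. The leading genes were SLC2A3 (GLUT3), at 344, 345 and 255 CPM per kb in the 3 libraries, and SLC2A1 (GLUT1), at 142, 249 and 133, both high-affinity glucose transporters. SLC2A3 was named after its values were seen, and part of its reads could belong to its near-identical copy SLC2A14. Even at its highest, SLC5A1 at 0.648 CPM per kb lay more than 2 orders of magnitude below SLC2A1.

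In the GLUT family 10 of 14 genes were measured. In DSS against control 2 were higher, 2 lower and 6 neither, against 9.45% higher and 5.81% lower of all measured genes. The median log2 ratio was -0.09 against -0.01 over all measured genes. The 2 higher genes were SLC2A1 and SLC2A6, a lysosomal GLUT, and the 2 lower were SLC2A2 and SLC2A10. SLC2A1 had 12202 counts in control, 21753 in DSS and 10971 with polydatin, so it was high in DSS alone and close to control with polydatin. SLC2A6 had 81, 221 and 285 counts and was 2.67-fold higher in DSS (2.06 to 3.49). SLC2A10 had 34, 19 and 29 counts and was at 0.548 times control in DSS (0.295 to 0.988). With polydatin against DSS, 1 GLUT gene was higher, 1 lower and 8 neither, against 5.39% higher and 2.6% lower of all measured genes. The median was 0.15 against -0.01 over all measured genes. The higher one was SLC2A13, the proton-coupled myo-inositol transporter gene, with 39, 36 and 58 counts and a ratio of 1.71 (1.11 to 2.67). The lower one was SLC2A1, at 0.536 times DSS (0.524 to 0.548).

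Of the 7 SLC5 genes listed, 4 were measured. SLC5A3, the sodium/myo-inositol cotransporter gene, was the 1 called higher in DSS against control, with 4566, 22872 and 26789 counts and a ratio of 4.91 (4.76 to 5.07). Its locus overlaps MRPS6, so their reads may be mixed. SLC5A1 was the 1 called higher with polydatin against DSS. Over all measured genes the shares called higher were 9.45% and 5.39% in these 2 comparisons. The median log2 ratio over the 4 was 0.23 in DSS against control and 0.25 with polydatin against DSS. The other measured sugar cotransporter genes of the list were not called in either comparison. SLC5A2, which encodes the renal glucose cotransporter SGLT2, had 23, 27 and 29 counts, and SLC5A9, which encodes a mannose and glucose cotransporter, had 145, 110 and 97. The ratios of DSS with polydatin to DSS were 1.14 (0.652 to 2.00) for SLC5A2 and 0.937 (0.706 to 1.24) for SLC5A9. That of SLC5A1 was 3.75 (2.16 to 6.86). SLC5A1 was measured only through its polydatin library, so the contrast with these genes supports nothing further. Both SLC5A2 and SLC5A9 were named after their values were seen.

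**Figure D4:**
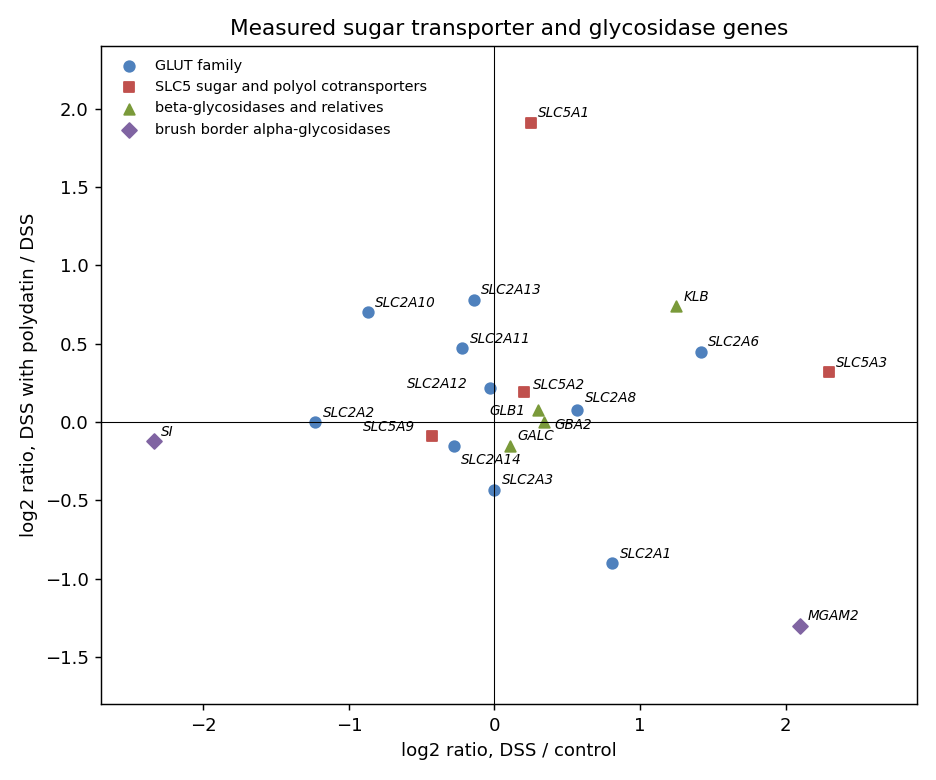
The log2 ratio of DSS to control (x axis) against that of DSS with polydatin to DSS (y axis) for measured genes of 4 lists, given by shape and colour. The DSS library enters both axes, so the 2 ratios are not independent. SLC5A1 lies alone at the top at 0.25 and 1.91, while SLC2A2 and SI lie to the left near 0 on the y axis. SLC5A1 was measured only through its polydatin library.

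The beta-glucosidase transcripts that these cells did hold came from other genes. Of 9 beta-glycosidases and related genes, 5 were measured, with a median log2 ratio of 0.34 in DSS against control and 0.08 with polydatin against DSS. In DSS 2 were higher and none lower, where 9.45% of all measured genes were higher and 5.81% lower. With polydatin against DSS, 5.39% of all measured genes were higher. KLB, which encodes beta-klotho, a glycosidase-like coreceptor of endocrine fibroblast growth factors, had 73, 177 and 279 counts. It was 2.38-fold higher in DSS (1.80 to 3.17) and a further 1.67-fold with polydatin (1.38 to 2.03), the 1 gene of the list called with polydatin against DSS. GBA2, the non-lysosomal glucosylceramidase gene, named after its values were seen, had 964, 1249 and 1179 counts and a polydatin ratio to DSS of 1.00 (0.925 to 1.09). LCTL, the lactase-like gene, had 1, 0 and 2 counts.

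Among the 4 alpha-glycosidases of the brush border, which split starch fragments, sucrose and trehalose, 2 were measured and they stood apart in opposite directions. SI, sucrase-isomaltase, had 853, 172 and 149 counts, the same order of libraries as SLC2A2. MGAM2, a maltase-glucoamylase relative, had 34, 149 and 57 counts. It was 4.30-fold higher in DSS than in control (2.94 to 6.43), and at 0.406 times DSS with polydatin (0.294 to 0.555) it was still 1.75-fold above control (1.12 to 2.75).

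Of the 9 genes listed for the sodium pump and for SGLT1 accessory proteins, 6 were measured. The beta subunit genes of the pump that maintains the sodium gradient, ATP1B1 and ATP1B3, were 1.76-fold (1.69 to 1.83) and 1.70-fold (1.63 to 1.77) higher in DSS, and none of the 6 was called with polydatin against DSS. Over all measured genes 9.45% were higher in DSS, while with polydatin against DSS 5.39% were higher and 2.6% lower. The median log2 ratio over the 6 was 0.39 in DSS and -0.13 with polydatin. RSC1A1, listed as a regulator of SGLT1, and the sweet taste receptor gene TAS1R2 had 0 counts in all libraries. Each overlaps 1 other annotated gene on the same strand. How shared reads were counted is not known, so these 0 counts may not mean absence.

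Of 14 transcription regulators and sugar-response genes, 11 were measured, with a median log2 ratio of 0.16 in DSS and -0.08 with polydatin. MLXIPL, which encodes the glucose-responsive factor ChREBP, was 3.20-fold higher in DSS (2.45 to 4.21) and 1.5-fold higher again with polydatin (1.27 to 1.78). TXNIP, a glucose-induced gene that restrains glucose uptake, had 1093, 835 and 1213 counts and was 1.54-fold higher with polydatin (1.41 to 1.69). ARRDC4, a relative of TXNIP, had 111, 66 and 78 counts and was at 0.583 times control in DSS (0.423 to 0.797). In DSS 1 of the 11 was higher and 1 lower, and with polydatin 2 were higher and 1, CDX2, lower. The shares over all measured genes were 9.45% higher and 5.81% lower in DSS, and 5.39% and 2.6% with polydatin.

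The genes whose pattern was most like that of each measured member were found by distance between pairs of log2 ratios, over 3 libraries and 10611 protein-coding genes with at least 5 CPM in some library. Nearest to SLC5A1 were IRF7 (distance 0.41, with 40, 49 and 130 counts), SLCO1B1 (0.64, with 60, 84 and 195) and BBC3 (0.77, with 37, 48 and 100). IRF7 encodes an interferon regulatory factor, SLCO1B1 a hepatic organic anion uptake transporter and BBC3 the BH3-only protein PUMA. Their polydatin log2 ratios were 1.5, 1.30 and 1.15, against 1.91 for SLC5A1. Neither member reached 5 CPM itself, with highest levels of 3.44 CPM for SLC5A1 and 2.15 CPM for SLC2A2. Genes as low as the members were therefore not compared, and the larger ratio of SLC5A1 beside these 3 carries no weight. Nearest to SLC2A2 were RGS2 (0.04, with 212, 90 and 86 counts), TUBE1 (0.05, with 849, 369 and 336) and MNS1 (0.05, with 369, 160 and 156). With 3 libraries the pattern has only 2 free values, so a short distance is a weak likeness.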

How the data were processed

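The submitters' processing notes name HISAT2 and GRCh38. Per the labels' protocols, Trizol RNA went into a VAHTS Universal library kit. The sources used here name no aligner version, counting program, annotation or strand setting. The authors deposited raw counts per Ensembl gene, not normalized, for 3 libraries, 1 per group. Symbols matched 60463 of 60664 identifiers.

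Counts were scaled with TMM factors (edgeR 4.0.16, R 4.3.3) of 0.971 (control), 0.984 with DSS alone and 1.05 with polydatin. Ratios of scaled counts carry exact 95% Clopper-Pearson intervals and CPM values exact Poisson intervals (scipy 1.17.1, Python 3.11.15). Where either count was 0, 0.5 was added to both. Where both counts were 3 or fewer, no ratio is given. Exon length is the union of exons in GENCODE release 29. On simulated Poisson counts for DSS against control (14265 genes), 100% of genes simulated 4-fold higher and 0.889% of 14065 unchanged genes were called. The interval held the true ratio in 95.2% of unchanged genes, 92% of 50 simulated 2-fold higher and 86% of 50 simulated 2-fold lower. The simulated counts had no spread between cultures and covered genes of all levels from 1 CPM. These shares are therefore not error rates of the calls above, or of genes with as few counts as the members.

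Members and lists were chosen with earlier results of these data known. Besides the members, up to 4 genes of each list were named, those called in DSS against control or polydatin with DSS against DSS with the highest CPM, and 3 genes nearest to each measured member. Others are said to be named after their values were seen. A few listed genes are counted in their lists but not reported here by name. Alternatives tried were size factors from DESeq2 1.42.0, total-count scaling, thinning to the smallest library, 2 counts added, no filter, a CPM of at least 10 and a 2-fold rule. Figures were drawn with matplotlib 3.10.9.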

Additional observations from a re-analysis of the deposited data

How the results depend on the processing

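The 12 log2 ratios of SLC5A1, SLC2A2, SLC2A5 and LCT stayed within their counting intervals under all 4 alternatives run on them (other scalings, thinning, added counts). The alternatives reuse the same reads and the intervals are wide, so staying within them says little about how stable the ratios are. For DSS with polydatin against DSS, SLC5A1 ranged from 1.79 to 2.01, and for DSS against control, SLC2A2 ranged from -1.25 to -1.14. LCT ranged from -1.02 to -0.01 for DSS against control, since thinning removes whole reads from 4. With a CPM of at least 10 no member was left, so the number called was 0 higher with polydatin against DSS, 0 lower with DSS against control, and 0 higher and 0 lower with polydatin against control. Over all genes that filter gave 749 higher and 438 lower (DSS against control), 237 and 234 (polydatin against DSS) and 1269 higher (polydatin against control), as fewer genes were counted. The 2-fold rule gave 627 and 261, 287 and 68, and 1262 and 483, and SLC5A1 and SLC2A2 passed it too. Total-count scaling gave 234 lower with polydatin against DSS and moved the median log2 ratio of all genes for polydatin against control from -0.02 to 0.09. No paired analysis was possible because each group has 1 library. Depth limits SLC2A5, LCT and GBA3 most.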

Other observations

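Another list held enzymes that receive the sugars inside the cell. Of 19 listed genes of hexose entry, 14 were measured, and none was called in DSS with polydatin against DSS. In that comparison 5.39% of all measured genes were higher and 2.6% lower. At such shares few calls fall among 14 genes, and their absence says little about these enzymes. The log2 ratio was above 0 in 7 of them and below 0 in 7, with a median of -0.04 against -0.01 over all measured genes. In DSS against control 1 was higher and 2 lower, where 9.45% of all measured genes were higher and 5.81% lower. AKR1B1, aldose reductase, had 463, 812 and 699 counts in control, DSS and DSS with polydatin and was 1.72-fold higher in DSS (1.53 to 1.93). HK1, a hexokinase gene, had 875, 558 and 626 counts and was at 0.625 times control in DSS (0.561 to 0.696).

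Of the 6 goblet cell markers 4 were measured, and 2 were called higher in DSS against control and none lower. In that comparison 9.45% of measured genes were higher, and 12.7% of those with a highest level from 1 to below 5 CPM. The 2 called genes, FCGBP and CLCA1, passed the 1 CPM filter only through libraries that received DSS. Their share of the measured markers therefore supports nothing further. FCGBP, a goblet cell mucus protein gene, had 3, 62 and 83 counts, and CLCA1, another goblet cell gene, 1, 18 and 18. Their ratios of DSS to control were 20.3 (6.62 to 101) and 17.6 (2.79 to 735), while MUC2, the main secreted gut mucin, had 0, 2 and 4 counts. TFF3 had 47, 41 and 34 counts and ZG16 88, 87 and 92, with ratios of DSS to control of 0.855 and 0.969.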
